A study of Mus musculus with 10 samples.

Results

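Cytosolic ribosomal protein genes were examined in the amygdala of wild-type and neuropsin knockout mice. Members were chosen by name: probe sets annotated to exactly 1 gene symbol that starts with Rpl or Rps and a digit, or is Rplp0, Rplp1, Rplp2 or Rpsa. Rps3, the S6 kinases and symbols marked as pseudogenes were left out by that rule. It gave 66 genes of the 22104 named on the array, with 508 of the 318760 probe sets that carry a single symbol. Of the 66 genes, 21 were counted by their names with the small (40S) subunit and 44 with the large (60S) subunit. The last one, Rps19bp1, matches by its letters only: its product binds a ribosomal protein and is not part of the ribosome. Rps4l is listed on the array under an older symbol, Rps4y2. Rpl11, Rps27a, Rpl38 and Rps3a, among others, had no probe set of their own name alone and are not in the counts.

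Arrays were made from 3-month-old mice of 2 genotypes, wild type on the C57BL/6 background and neuropsin-/-, the latter crossed back to C57BL/6 for 12 generations. Neuropsin is a secreted serine protease encoded by Klk8. Each genotype had 15 animals and 5 arrays, and each array held amygdala RNA of 3 pooled animals, so the spread between arrays is that between pools. Brains were perfused and sliced, and ribosomal RNA was reduced before labelling. The labels name no treatment, and no promoter or Cre that would limit the deletion to some cells. The array probes exons, so 1 gene can have many probe sets.

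The cytosolic ribosome translates all messages of the nuclear genome, and its proteins are needed together to build a particle. The messages of these proteins start with a run of pyrimidines, the 5′ terminal oligopyrimidine tract, through which the kinase complex mTORC1 and its targets set their translation as a group. In neurons the same messages are also found in dendrites and axons, and neuropsin itself is known for its role in synaptic plasticity and in stress-related behaviour that involves the amygdala.

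To show what such a tract looks like, the sequences around the annotated starts of 7 members are given here, 5 with a pyrimidine run and 2 without, all genes described below. Each is 50 bases long, 30 before the start and 20 from it onward, on the gene's strand, from RefSeq on build GRCm38.p6. Capitals mark a pyrimidine run of at least 5 bases that begins with C within 5 bases of the annotated start.
Rps18: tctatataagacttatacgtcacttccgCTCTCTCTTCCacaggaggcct
Rps21: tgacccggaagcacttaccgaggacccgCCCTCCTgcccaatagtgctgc
Rps6: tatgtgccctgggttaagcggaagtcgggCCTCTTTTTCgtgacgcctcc
Rpl15: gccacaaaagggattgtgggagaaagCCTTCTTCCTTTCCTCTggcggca
Rpl27a: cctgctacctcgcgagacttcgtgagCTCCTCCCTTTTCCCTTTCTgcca
Rps16: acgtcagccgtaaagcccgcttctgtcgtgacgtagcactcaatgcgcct
Rpl35a: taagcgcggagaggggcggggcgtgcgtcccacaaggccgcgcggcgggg
The stretches lie at chr17:33955646-33955695 on the minus strand for Rps18, chr2:180257349-180257398 on the plus strand for Rps21 and chr4:86857348-86857397 on the minus strand for Rps6. Those of Rpl15 and Rpl27a lie at chr14:18270967-18271016 on the minus strand and chr7:109519165-109519214 on the plus strand. Those of Rps16 and Rpl35a lie at chr7:28350659-28350708 and chr16:33056423-33056472, both on the plus strand. The longest run shown, 20 bases, is that of Rpl27a, and the shortest, 7 bases, that of Rps21.

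A promoter entry was held for 51 of the 65 ribosomal protein genes, and the first entry was used for each gene. A run as defined above was present in 23 of the 51, or 45.1%, against 18.5% of all 27025 promoters and 21.7% of 69 promoters of mitochondrial ribosomal protein genes. Runs beginning farther than 5 bases from that annotated start were not counted. Whether members without a counted run have a tract at another start was not tested. The annotated start was a C in 33.3% of the members, in 15.9% of the mitochondrial ribosomal proteins and in 16.2% of all promoters. The motif CCGGAAG, the core bound by ETS factors, was found on either strand in 41.2% of the members' windows of 300 bases, in 36.2% of those of the mitochondrial ribosomal proteins and in 9.12% of all. AAGATGGC, the core of the YY1 site, was in 9.8% of the members, 17.4% of the mitochondrial ribosomal proteins and 2.88% of all. In the same order, GGGCGG, the Sp1 box, was in 58.8%, 49.3% and 35.9%, and TATAAA was in 9.8%, 5.8% and 14.2%. None of these letter strings contains another of them. The members' windows held 57.9% G and C on average, those of the mitochondrial ribosomal proteins 59% and all windows 53.6%. A match describes the letters only. Of the 23 members with a run, 15 were lower in the knockout, with a median log2 difference of -0.04. Of the 28 without one, 17 were lower, with a median of -0.02.

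The arrays had medians over all their probe sets of 4.95 to 5.03 on the log2 scale. Wild-type arrays 4 and 5 stood apart on the first principal component of gene levels, which held 28.1% of the variance, with scores of 25.3 and 28.7. Knockout arrays 4 and 5 came next, at 10.9 and 5.3, and arrays 1 to 3 of both genotypes lay between -19.4 and -1.2. Where wild-type arrays 4 and 5 are left out below, knockout arrays 4 and 5 were kept, so that comparison is not balanced on this component. Klk8, the targeted gene, had wild-type and knockout means over 9 probe sets of 5.17 ± 0.27 and 5.02 ± 0.29 (SD, n = 5 each), a difference of -0.15 with p = 0.413 in a two-sided exact permutation test. Which exons the deletion removes is not given in the sources used here, so this level is no check of the labels. All 5 markers of the hypothalamus were lower in the knockout, by 0.92 on average, and their centred mean ranged from -0.01 to 1.29 over the wild-type arrays and from -0.59 to -0.27 over the knockout arrays. All 5 markers of the choroid plexus were lower as well, by 0.42 on average, with a centred mean of -0.61 to 0.73 over the wild-type arrays and of -1.002 to 0.72 over the knockout arrays. Also lower in all measured genes were the markers of the central amygdala (5 of 5, by 0.24 on average), of microglia (5 of 5, by 0.06), of myelin (4 of 4, by 0.23) and of the striatum (4 of 4, by 0.21). Their centred means over the wild-type and knockout arrays overlapped. Of 5 nuclear-retained RNAs none was lower, and their mean was 0.14 higher in the knockout, with -0.25 to 0.09 over the wild-type arrays and -0.10 to 0.15 over the knockout arrays. The other lists were mixed. Of the markers of the lateral and basal amygdala 2 of 5 were lower, with a mean difference of 0.01, and of neurons 1 of 4, with 0.08. Of astrocytes it was 4 of 5, with -0.03, and of the endothelium 3 of 5, with -0.02. Rbfox3 and Adora2a, markers of neurons and of the striatum, were below the intensity filter. The part of these marker lists in the differences of the members and of the lists below was not tested. Rspo2, a marker of the basal amygdala, read 6.57 ± 0.13 and 6.61 ± 0.11 (SD, n = 5 each). In such bulk tissue, fewer cells of a type and less RNA per cell cannot be told apart.

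No ribosomal protein gene passed the test between genotypes. A gene's level was the mean log2 value of its probe sets above the median intensity of the array, and limma was fitted over 19982 genes with Benjamini-Hochberg adjustment at 0.05. The lowest adjusted p of the 66 members was 0.634, and 0.01% of all genes tested passed. At an unadjusted p under 0.05 there were 4 of 66 members, or 6.06%, against 6.57% of all genes, and all 4 were lower in the knockout (background for lower genes 4.17%). They were Rpl23a, Rpl17, Rps18 and Rps21. In no member did the groups fail to overlap, while they did in 1.39% of all genes. The share with a 95% interval wholly inside 1.5-fold either way was 56 of 66, or 84.8%, near the 88.5% of all genes.

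The members sat slightly below their wild-type levels without single genes standing out. In the knockout 45 of 66 were lower and 21 higher, so 68.2% were lower against 53% of all genes. Their median log2 difference was -0.04 and that of all genes -0.01. Among 40S genes 18 of 21 were lower, with a median of -0.07, and among 60S genes 27 of 44, with a median of -0.02. These counts rest on single arrays: without wild-type array 2, 34 of 66 members were lower and the median was -0.0023, while without wild-type arrays 4 and 5, 57 of 66 were lower and the median was -0.12. The count over all genes moved the same way: 10591 of 19982 were lower with all arrays, 9354 without array 2 and 12749 without arrays 4 and 5. Without array 2 the 40S count was 12 of 21 and the 60S count 22 of 44. Without arrays 4 and 5 the 40S and 60S counts were 20 of 21 and 36 of 44. With no intensity filter 13 of 21 40S genes were lower and their median was -0.04, and with probe sets summarised by their median it was -0.16.

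**Figure D1:**
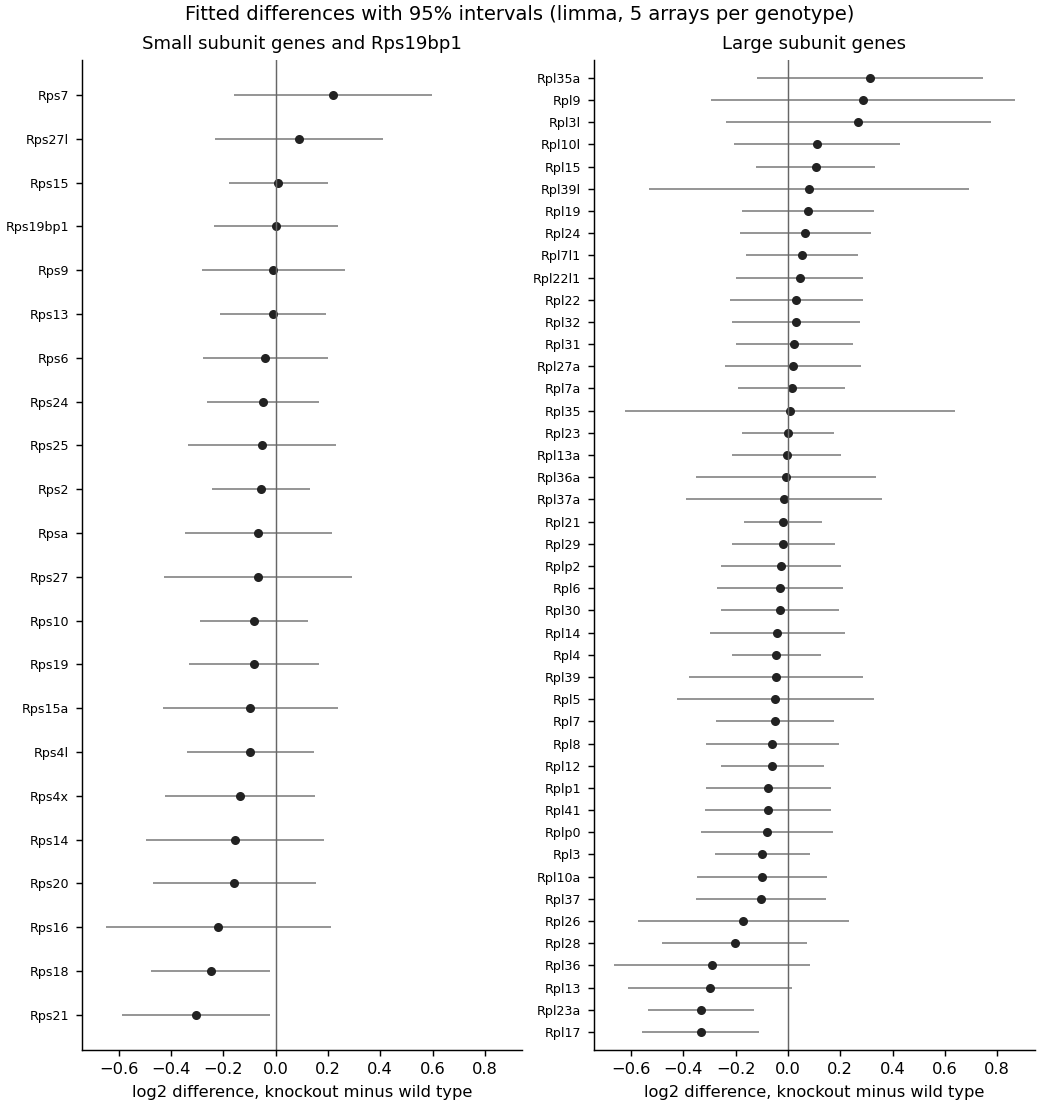
Fitted log2 difference of each member, knockout minus wild type (points), with 95% intervals (lines) from limma over 5 arrays per genotype; small subunit genes and Rps19bp1 are at the left, large subunit genes at the right. The intervals of 4 genes, Rps18, Rps21, Rpl23a and Rpl17, lie wholly below 0 before adjustment, and none lies wholly above.

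The proteins Rpl23a and Rpl17 sit at the rim of the tunnel through which the new chain leaves the 60S subunit, and their genes had the smallest p. Rpl23a read 8.93, 8.65, 8.68, 8.81 and 8.56 on wild-type arrays 1 to 5 and 8.42, 8.44, 8.26, 8.59 and 8.28 on knockout arrays 1 to 5. All knockout arrays but array 4 were below all wild-type arrays, and array 4 overlapped with wild-type array 5. The means were 8.73 ± 0.14 and 8.40 ± 0.13 (SD, n = 5 each), a log2 difference of -0.33 (SE 0.09), or 1.26-fold lower, with adjusted p = 0.634 in limma. Rpl23a had 2 tested probe sets, which differed by -0.35 and -0.31. Over all settings tried its difference stayed between -0.38 and -0.28.

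Rpl17 read 7.68, 7.39, 7.77, 7.46 and 7.33 in wild type and 7.15, 7.30, 7.35, 7.02 and 7.16 in the knockout. Only knockout array 3 reached the lowest wild-type array. The difference was -0.33 (SE 0.10) with adjusted p = 0.708 in limma, and it rests on 1 tested probe set of 2. With both probe sets the difference was -0.01. The other genes at this exit were Rpl19 at 0.08, Rpl26 at -0.17, Rpl31 at 0.02, Rpl35 at 0.01 and Rpl39 at -0.05, so 4 of 7 were lower.

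Rps18 and Rps21 encode proteins of the small subunit. Rps18 read 7.26, 7.33, 7.56, 7.20 and 7.15 in wild type and 6.78, 7.21, 7.19, 7.00 and 7.08 in the knockout. Knockout arrays 1, 4 and 5 were below all wild-type arrays and arrays 2 and 3 were among them. The difference was -0.25 (SE 0.10) with adjusted p = 0.751 in limma; 5 of its 7 tested probe sets were lower, and without knockout array 1 it was -0.18. Rps21 read 7.96, 8.51, 7.97, 8.10 and 7.85 in wild type and 7.79, 8.07, 7.65, 7.73 and 7.63 in the knockout. Here wild-type array 2 was the highest and knockout array 2 was the only knockout array above the lowest wild-type one. The difference was -0.30 (SE 0.13), with adjusted p = 0.751 in limma and 3 of 3 probe sets lower. Without wild-type array 2 it was -0.20.

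**Figure D2:**
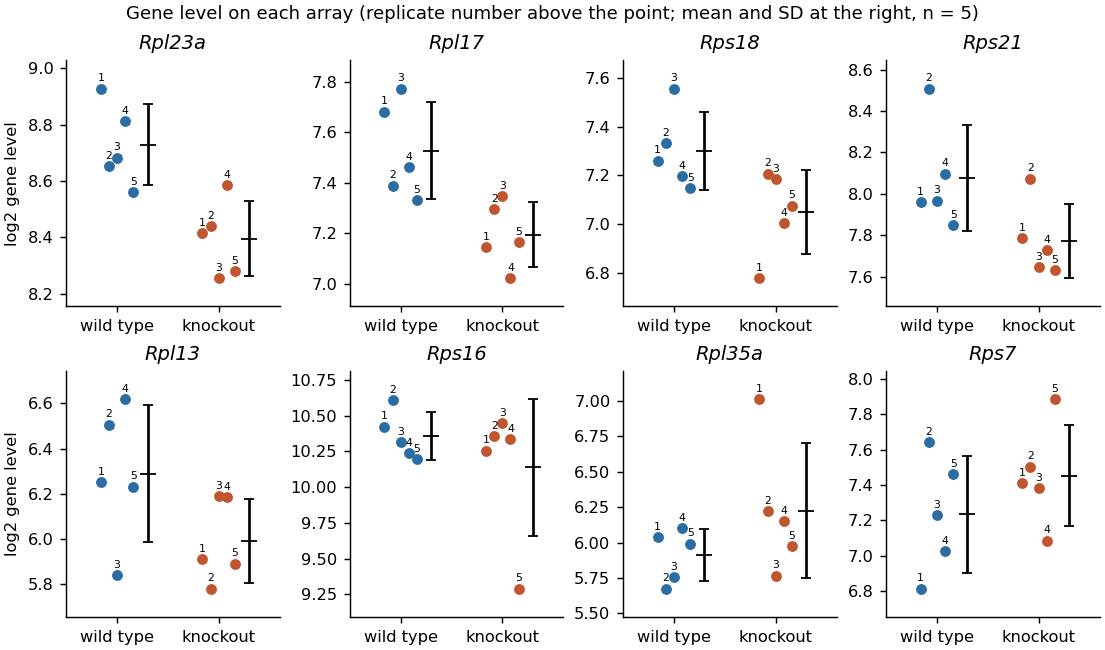
Log2 gene level on each array for 8 members, wild type in blue and knockout in orange, with the replicate number above each point and the mean and SD (n = 5) beside each group; the axes differ between panels and do not start at 0. The groups overlap in every panel, by 1 array in Rpl23a, and a single array stands far from its group in Rps16 (knockout 5) and Rpl35a (knockout 1).

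The next 6 lower members by p did not pass either. Rpl13 read 6.29 ± 0.30 in wild type and 5.99 ± 0.19 in the knockout (SD, n = 5 each), a difference of -0.30 (SE 0.14) on 1 probe set. Rpl36 differed by -0.29 (SE 0.17), and by -0.18 without knockout array 3. Rpl28 differed by -0.20 (SE 0.13), and by -0.12 without knockout array 1. Rps20 differed by -0.16 (SE 0.14), by -0.06 without wild-type array 2 and by -0.09 without knockout array 1. Rpl3, which lies close to the catalytic centre of the 60S subunit, had 24 tested probe sets, of which 21 were lower. It read 10.46, 10.61, 10.47, 10.29 and 10.29 in wild type and 10.21, 10.40, 10.33, 10.43 and 10.28 in the knockout. All 5 knockout arrays were below wild-type arrays 1 to 3, while 3 of them were above wild-type arrays 4 and 5, and the difference was -0.10 (SE 0.08), or -0.05 without wild-type array 2.

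Rps16, a small subunit protein near the site of the initiator tRNA, owed its difference of -0.22 (SE 0.20) to 1 array. It read 10.42, 10.61, 10.31, 10.23 and 10.20 in wild type and 10.26, 10.36, 10.45, 10.33 and 9.29 in the knockout. Knockout array 5 was low and the other 4 lay within the wild-type range. Without it the difference was -0.0071. The low reading came mainly from 2 of 9 tested probe sets: probe set 4713930 read 6.67 on this array and 12.53 to 12.97 on the other 9, and probe set 5337368 read 8.51 against 11.20 to 11.65. Probe set 5036642 of the same gene read 12.08 on this array and 11.89 to 12.40 on the others.

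No member was higher in the knockout at an unadjusted p under 0.05, against 2.4% of all genes. Rpl35a, a 60S protein mutated in some cases of Diamond-Blackfan anaemia, read 6.04, 5.68, 5.76, 6.10 and 5.99 in wild type and 7.01, 6.22, 5.77, 6.15 and 5.98 in the knockout. Only knockout array 1 was far above the wild-type range. The difference was 0.31 (SE 0.20), and without that array it was 0.12. Rps7, a 40S protein, read 6.81, 7.64, 7.23, 7.03 and 7.46 in wild type and 7.41, 7.50, 7.38, 7.08 and 7.89 in the knockout, a difference of 0.22 (SE 0.17). Its groups overlapped over most of their range, and the difference was 0.11 without knockout array 5 or without wild-type array 1. Rpl9 and Rpl3l differed by 0.29 (SE 0.27) and 0.27 (SE 0.23), each on 1 tested probe set. Without knockout array 5 they were at 0.11 and 0.17. Without wild-type array 4 or 5 Rpl9 was at 0.14 and 0.19, and without wild-type array 1 at 0.44. Rpl3l was at 0.17 without wild-type array 3 and at 0.48 without knockout array 2. Rpl15 was at 0.11, and at 0.05 and 0.03 without wild-type array 4 and 5 in turn. Rpl10l at 0.11, Rps27l at 0.09, Rpl19 at 0.08, Rpl24 at 0.07 and Rpl7l1 at 0.05 completed the 10 higher members of smallest p. Rpl10l rested on 1 tested probe set of 3, and with all 3 its difference was -0.11. With the tested probe set it was 0.003 without knockout array 2 and 0.011 without wild-type array 1.

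The P stalk, which recruits the elongation factors, is built from Rplp0, Rplp1 and Rplp2 on a base that includes Rpl12. None of the 4 differed by more than its SE, with differences of -0.08 (SE 0.12) for Rplp0, -0.07 (SE 0.11) for Rplp1, -0.03 (SE 0.10) for Rplp2 and -0.06 (SE 0.09) for Rpl12. Rplp1 read 9.90, 10.35, 9.83, 9.90 and 9.90 in wild type and 9.74, 10.08, 9.94, 9.95 and 9.80 in the knockout. Wild-type array 2 was apart and the other 4 wild-type arrays lay within the knockout range. Without that array Rplp1 was at 0.02, Rplp2 at 0.05 and Rplp0 at -0.03, so that 2 of the 4 genes had the other sign. Rplp0 was lowest on knockout array 1, at 8.41, and highest on wild-type array 2, at 9.07.

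Rps6, the target of the S6 kinases whose phosphorylation is used as a marker of neuronal activity, read 6.26 ± 0.15 in wild type and 6.22 ± 0.21 in the knockout (SD, n = 5 each). The difference was -0.04 (SE 0.11). Rpl5, which with Rpl11 and 5S RNA binds the p53 regulator Mdm2, read 8.38 ± 0.28 and 8.33 ± 0.33 (SD, n = 5 each), a difference of -0.05 (SE 0.17). It was highest on wild-type array 5, at 8.81, and knockout array 5, at 8.77. Rpsa, the 40S protein also known as a laminin receptor, differed by -0.07 (SE 0.13).

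Among genes mutated in Diamond-Blackfan anaemia, a failure of red cell formation in humans, 11 of 18 listed were measured. Of these 6 were lower and 5 higher in the knockout, with a median of -0.05. Paralogs of ribosomal proteins split evenly, with 7 of 14 lower and a median of 0.01. Rps4x, the X-linked form, differed by -0.14 (SE 0.13), and Rps4l by -0.10 (SE 0.11). Rpl22 and its relative Rpl22l1 differed by 0.03 (SE 0.12) and 0.05 (SE 0.11). Rpl39, at -0.05 (SE 0.15), and Rpl39l, at 0.08 (SE 0.28), had opposite signs within their errors, as did Rps27, at -0.07 (SE 0.16), and Rps27l. Rpl7 was at -0.05 (SE 0.10) and Rpl36a at -0.01 (SE 0.16).

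Klk8 lies on chromosome 7, and so do 9 of the members. Of these 8 were lower in the knockout, with a median of -0.03, while 37 of the 56 on other chromosomes were lower, with a median of -0.04. Beside Rps16 and Rpl28 they were Rps15a at -0.10 (SE 0.15), Rps19 at -0.08 (SE 0.11), Rplp2, Rps13 at -0.01 (SE 0.09), Rps9 at -0.01 (SE 0.12), Rpl13a at -0.01 (SE 0.09) and Rpl27a at 0.02 (SE 0.12).

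The remaining members lay closer to 0 or within their errors. Of the small subunit, Rps14 differed by -0.15 (SE 0.16), Rps10 by -0.08 (SE 0.09), Rps2 by -0.06 (SE 0.09), and Rps24 and Rps25 by -0.05 each (SE 0.10 and 0.13). Of the large subunit, Rpl10a, Rpl37, Rpl41, Rpl8, Rpl14, Rpl6, Rpl30, Rpl29 and Rpl37a lay between -0.10 and -0.01, and Rpl32 was at 0.03 (SE 0.11). Rps19bp1, the gene that is no ribosomal protein, was at 0.00 (SE 0.11).

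The members differed more between arrays of 1 genotype than between the genotypes. With each gene centred on its mean over the 10 arrays, the mean over the members was 0.06, 0.17, 0.02, -0.08 and -0.07 on wild-type arrays 1 to 5 and -0.06, 0.05, -0.03, -0.03 and -0.02 on knockout arrays 1 to 5. Wild-type array 2 was the highest and wild-type arrays 4 and 5 the lowest, so the wild-type group spanned the whole range and the knockout group lay inside it. The group means were 0.02 ± 0.10 and -0.02 ± 0.04 (SD, n = 5 each). On wild-type array 2, 52 of 66 members were above their own mean, while 70.4% of all genes were. It was the highest array for 33 of 66 members and for 19.2% of all genes. On wild-type arrays 4 and 5 only 16 and 17 members were above their mean, against 38.7% and 43.6% of all genes. Knockout array 1 was the lowest for 14 members and for 12.5% of all genes. On this array 5 of the 21 40S genes were above their mean and on knockout array 2 it was 18 of 21.

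**Figure D3:**
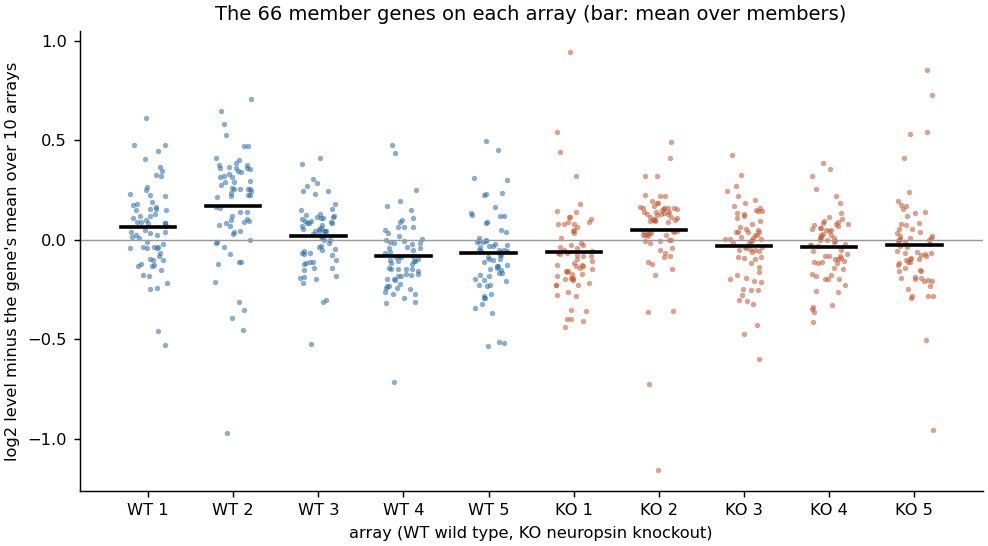
Each point is 1 of the 66 members on 1 array, as its log2 level minus the gene's mean over the 10 arrays; bars are means over the members, with wild type (WT) in blue and knockout (KO) in orange. The bar is highest on wild-type array 2, at 0.17, and lowest on wild-type array 4, at -0.08, and the 5 knockout bars lie between -0.06 and 0.05.

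Within a genotype the members varied somewhat more than other genes. Their median SD within groups was 0.190 against 0.166 for all genes, and 47 of 66 were above the latter. The widest ranges over the 10 arrays were those of Rpl35 and Rpl39l, both 1.70, then Rpl9 with 1.57, Rpl35a with 1.34 and Rps16 with 1.32. Rpl35 had both its extremes in the knockout, 4.32 on array 2 and 6.02 on array 1. All of these but Rps16 rested on 1 or 2 tested probe sets. The narrowest ranges were those of Rpl21 with 0.245, Rpl4 with 0.305, Rpl23 with 0.309, Rpl7a with 0.383 and Rps15 with 0.388. Rpl21 read 8.88, 8.82, 9.01, 8.77 and 8.85 in wild type and 8.84, 8.89, 8.77, 8.92 and 8.82 in the knockout. These values are interleaved, and the difference was -0.02 (SE 0.07). Among the 46 members with 3 or more tested probe sets 35 were lower, with a median of -0.05, and among the 20 with 1 or 2 it was 10, with a median of 0.00.

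Other genes of translation were set beside the members, and none of the lists had a gene that passed. Initiation factors were higher in the knockout in 29 of 35 cases, with a median of 0.07, and ribosome assembly factors in 32 of 38, with a median of 0.07. The leading ones were Eif5b, which joins the subunits, at 0.30 (SE 0.14), Eif4g3, a scaffold of the cap complex, at 0.14 (SE 0.07), Bms1, a GTPase of 40S assembly, at 0.25 (SE 0.09), and Rrp12 at 0.18 (SE 0.08). Subunits and factors of RNA polymerase I, which transcribes ribosomal RNA, were higher in 9 of 12 cases, led by Taf1b at 0.17 (SE 0.07) and Polr1a at 0.15 (SE 0.09). These directions rest on wild-type arrays 4 and 5, where the centred means of initiation factors were -0.17 and -0.24. Without both arrays 22 of 35 initiation factors, 23 of 38 assembly factors and 8 of 12 RNA polymerase I genes were lower, and the median of all genes was -0.05.

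Of 13 genes of mTORC1 and the S6 kinases, 9 were higher, with a median of 0.07. Their centred mean was -0.13 and -0.07 on wild-type arrays 4 and 5 and 0.03 to 0.06 on the other wild-type arrays. Without arrays 4 and 5, 5 of the 13 were lower and the median was 0.01. Akt1s1, an inhibitor of mTORC1, was at -0.16 (SE 0.09) and Rps6kb1, the S6 kinase, at 0.17 (SE 0.10). Elongation factors and their regulators were lower in 7 of 9 cases, with a median of -0.05. Eef2k, the kinase that inhibits eEF2, was at 0.15 (SE 0.07) with groups that did not overlap, and Eif5a at -0.12 (SE 0.07); limma gave an adjusted p of 0.754 for Eef2k. Without the same arrays 8 of 9 elongation genes were lower, with a median of -0.14. Of 7 hosts of small nucleolar RNAs 5 were higher, and 6 were lower without wild-type arrays 4 and 5. With all arrays Snhg6 was at -0.25 (SE 0.13) and Snhg1 at 0.09 (SE 0.11).

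Genes of the mitochondrial ribosome and of the respiratory chain were also highest on wild-type array 2, and both lists were lowest on wild-type array 5. Of 77 mitochondrial ribosomal protein genes 39 were lower, with a median of 0.00, led by Mrpl10 at -0.18 (SE 0.07) and Mrps9 at 0.20 (SE 0.08). Of 79 respiratory chain genes 58 were lower, with a median of -0.04, led by Atp5k at -0.28 (SE 0.10) and Ndufa4l2 at -0.27 (SE 0.11). Proteasome subunits were higher in 22 of 31 cases, with a median of 0.06, led by Psmd7 at 0.15 (SE 0.08) and Psma3 at 0.21 (SE 0.12). Without wild-type arrays 4 and 5, 66 of 77 mitochondrial ribosomal protein genes, 75 of 79 respiratory chain genes and 25 of 31 proteasome genes were lower. Without wild-type array 2 it was 38 of 79 respiratory chain genes, with a median of 0.0040.

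**Figure D4:**
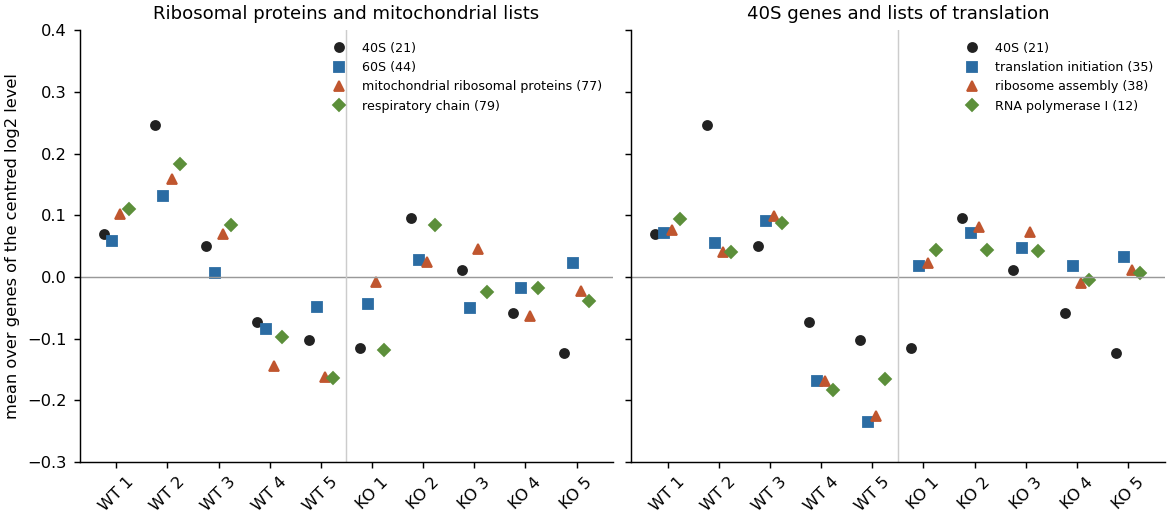
Mean over the genes of a list of the centred log2 level on each array, with the number of genes in brackets; the vertical line parts wild type (WT) from knockout (KO). The 40S genes peak on wild-type array 2, at 0.25, and initiation and assembly factors are lowest on wild-type arrays 4 and 5, at -0.17 to -0.24.

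No single probe set of a member passed either. Of the 508 probe sets 428 were above the filter, and at least 1 was for each of the 66 genes. None of the 428 passed the limma test over 628415 probe sets, of which 0.00239% passed. The 628415 include probe sets named for several genes or for none, while those of the members carry 1 symbol. In limma the smallest adjusted p of a member was 0.823. At an unadjusted p under 0.05 there were 7, or 1.64% against 5.97% of all probe sets. In the knockout 278 of 428 were lower, or 65% against 49.7% of all, with a median of -0.05 against 0.00. The largest of the leading differences was that of probe set 4657552 of Rpl24, at 0.63 (SE 0.25), whose wild-type arrays read 4.22 to 5.28 and knockout arrays 4.80 to 5.86. Next by p came 5283411 of Rps20 at -0.47 (SE 0.19), 4628214 of Rpl15 at 0.50 (SE 0.20), 4752384 of Rpl17 at -0.33 and 4739660 of Rpl23a at -0.35. The groups did not overlap in 1 probe set, or 0.234% against 1.1% of all. It was 5270192 of Rps2, singled out after its values were seen, whose wild-type arrays read 11.22 to 11.43 and knockout arrays 11.10 to 11.20, a difference of -0.14 (SE 0.13).

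**Figure D5:**
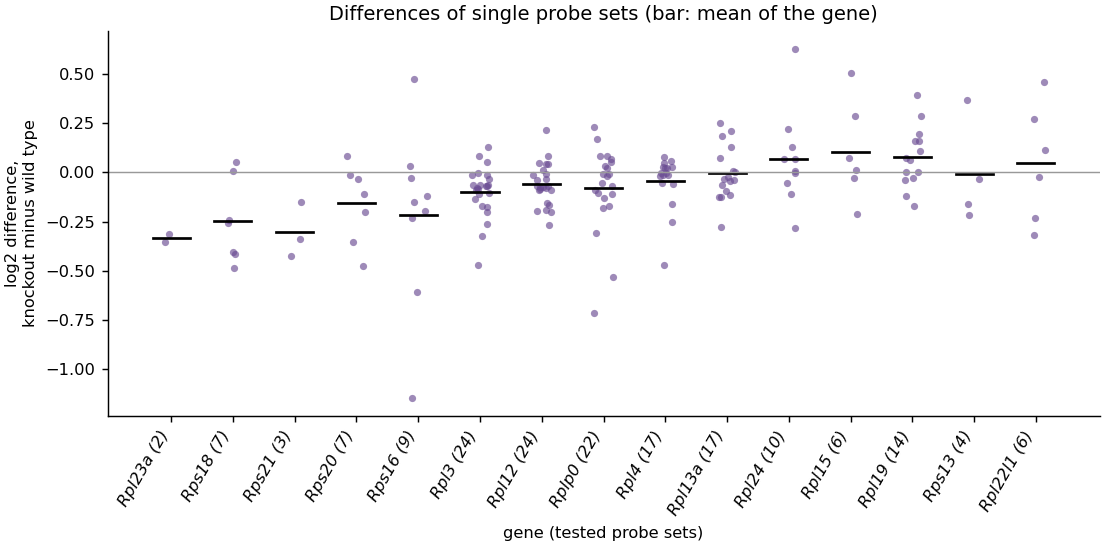
Log2 difference, knockout minus wild type, of every tested probe set (points) of 15 members, with the number of tested probe sets in brackets and a bar at the gene's mean. Probe sets of 1 gene spread to both sides of 0 in most genes; Rps16 spans -1.15 to 0.47 and Rpl3 -0.47 to 0.13.

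The use of single exons relative to their gene was tested for 397 probe sets of 46 members with at least 3 tested probe sets each. None passed in limma, against 0.00587% of all 238333, and the smallest adjusted p was 0.944. At an unadjusted p under 0.05 there were 9, or 2.27% against 5.27%. The smallest p were those of probe set 4603205 of Rpl22l1, with a relative difference of -0.37 (SE 0.11), 4800410 of Rps19bp1 at 0.30 (SE 0.10), 5459757 of Rps13 at 0.38 (SE 0.12), 5441834 of Rpl24 at -0.35 (SE 0.12) and 4849193 of Rpl7 at 0.39 (SE 0.14). Probe set 4603205 read 8.72, 8.82, 8.59, 8.85 and 8.92 in wild type and 8.29, 8.67, 8.62, 8.30 and 8.42 in the knockout. Knockout arrays 1, 4 and 5 were below all wild-type arrays.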

How the data were processed

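Expression was measured with exon arrays on amygdala RNA of 5 wild-type and 5 neuropsin knockout pools. The authors deposited log2 values, 1 per probe set and array, from RMA in Affymetrix Expression Console, per the labels' descriptions. Its version and the annotation build: not given in the sources used here. Of 1256831 probe sets, 318760 were named for 1 gene by the platform annotation, 6684 for several and 931387 for none. Symbols were updated through RefSeq (GRCm38.p6).

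A gene's level was the mean of its single-gene probe sets whose mean exceeded the median, 4.94; 19982 genes had at least 1. The fit was limma 3.58.1 (lmFit, eBayes) in R 4.3.3 on genotype alone, with Benjamini-Hochberg adjustment over all genes or probe sets and a threshold of 0.05; it was tested on simulated data. Members and lists were chosen with earlier results of these data known. Named genes were the 10 higher and 10 lower members of smallest p, the best known members, paralogs, members on chromosome 7, the 2 leading genes of a list, the 5 leading probe sets per test, and the 5 widest and 5 narrowest ranges. The number of arrays limits the precision. The labels do not say that equal replicate numbers pair arrays: the correlation of their deviations was 0.04 to 0.33 and below 0.1 for number 2. Arrays were also left out in turn, and filters, summaries, normalization, weights and covariates varied. Scanner files and scan days were not used here. Sequence shared with copies elsewhere in the genome was not checked.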

Additional observations from a re-analysis of the deposited data

Results flagged for a closer look

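In 6 of the 96 groups of 5 arrays looked at, 1 array lay far from the other 4, with a gap of over 0.71 of the group's range (chance gives about 1 in 20 groups). The groups looked at do not cover all members, so the cases given here are not a full list. Rps16 read 9.29 on knockout array 5 and 10.26 to 10.45 on the other knockout arrays. Rpl3l read 4.37 on knockout array 2 and 5.27 to 5.62 on the others. Wild-type array 2 was the high one for Rpl24, at 9.25 against 8.69 to 8.78, for Rplp1, at 10.35 against 9.83 to 9.90, and for Rps15, at 8.73 against 8.36 to 8.41. Rpl23 read 9.03 on wild-type array 1 and 8.73 to 8.80 on the other wild-type arrays.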

How the results depend on the processing

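No member passed under any of the 23 other settings at gene level, and the smallest adjusted p in limma was 0.258, for Rpl17 with the first principal component as a covariate. The number of members with an unadjusted p under 0.05, 4 as reported, was 2 with no intensity filter, with at least 3 probe sets per gene and without knockout array 1 or 5, and 8 without wild-type arrays 4 and 5. With each array centred on its median, 40 of 66 members were lower. The count of lower genes among all tested fell too, from 10591 to 9614. With arrays left out in turn, the members' median lay between -0.07 and -0.0023, the 40S median between -0.11 and -0.03 (-0.16 with the median over probe sets) and the 60S median between -0.05 and 0.0024. Without wild-type arrays 4 and 5 the 60S median was -0.10, Rpl9 was at -0.0354 and Rpl15 at -0.0606, although both were higher in the knockout with all arrays. Rpl15 was at -0.00631 when its probe sets were summarised by their median. The cause was not tested. Of the members, 50 differed by less than their SE. The side of 0 on which these lie enters the counts of lower and higher members. Single genes were followed under other settings only for the named members, and 31 of those differed by less than their SE. Of the 705 values of these 31 under other settings, 120 had the other sign. The replicate numbers were also used as a block: 0 members passed and the median was -0.04. The correlation of deviations between arrays of 1 number was highest with its own number for 3 of 5 numbers. Probe sets and relative exon use gave 0 members under all settings run, diffSplice included, which called 276 of 16367 genes (smallest adjusted p of a member 0.429).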

Other observations

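Probe sets annotated to a ribosomal protein gene and at least 1 other gene numbered 88, over 14 genes, and 79 were above the filter. In the knockout 51 were lower and 28 higher, with a median log2 difference of -0.08, and the smallest adjusted p in limma was 0.784. Rpl38, which is on the array only through such probe sets, had 13 of 15 lower, with a median of -0.14. Rpl27a went the other way, with 9 of 11 shared probe sets higher. Among 41 measured genes annotated as ribosomal protein pseudogenes, 26 were lower and 15 higher, with a median of -0.07 and a smallest adjusted p of 0.708 in limma.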
